A study of Mus musculus with 4 samples.

Results

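The members described here are 8 retinal astrocyte genes, Gfap, Pdgfra, Pax2, S100b, Aldh1l1, Cd44, Slc4a4 and Gja1, taken by symbol from a table of 22690 genes. They stand for the astrocytes that enter the retina from the optic nerve and that a sort for cells with a 4N genome (DNA copied, division still to come) can hold. All 8 were found and all 8 passed the level filter, a mean normalized read count of at least 10. RNA-seq libraries came from sorted retinal cells of C57BL/6 mice at postnatal day 2, whose dissected cells were kept for a time in serum-free medium. The first group holds 2 libraries of GFP-positive cells labelled Casz1 cKO, a conditional knockout of a zinc finger transcription factor gene, and the other holds 2 libraries of GFP-negative cells labelled wild type (WT). Genotype and GFP sort thus change together and cannot be told apart. The sources used here name neither the Cre driver, the source of the GFP nor the number of animals in a library. Without the animal numbers, the p-values measure only the spread between these libraries, which may be technical.

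Retinal astrocytes do not arise from retinal progenitors. Their precursors express the transcription factor Pax2 in the optic stalk, migrate in from the optic nerve head around birth and spread over the ganglion cell layer, dividing as they go. They carry the receptor Pdgfra and follow platelet-derived growth factor A released by ganglion cells. Gfap, S100b and other glial genes rise as they mature, and the network they lay down guides the growth of the retinal blood vessels. Mueller glia, which do arise from retinal progenitors, share several of these genes, and fibroblasts and oligodendrocyte precursors also express Pdgfra.

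The promoters of the 4 members with both cKO libraries below both WT libraries are shown, since these are the members the results turn on. Each window runs from 250 bases before to 30 bases after a RefSeq start on GRCm38.p6 and is written in the direction of transcription. Capitals mark TTCNNNGAA, the core letters bound by STAT factors, which read the same on both strands. Gfap is on the minus strand (chr11:102897171-102897450), and Pdgfra (chr5:75152001-75152280), Pax2 (chr19:44755502-44755781) and S100b (chr10:76253586-76253865) are on the plus strand. RefSeq lists 3 starts for Pax2, and the window shown is the nearest upstream of the GENCODE gene start at 44756045.
Gfap: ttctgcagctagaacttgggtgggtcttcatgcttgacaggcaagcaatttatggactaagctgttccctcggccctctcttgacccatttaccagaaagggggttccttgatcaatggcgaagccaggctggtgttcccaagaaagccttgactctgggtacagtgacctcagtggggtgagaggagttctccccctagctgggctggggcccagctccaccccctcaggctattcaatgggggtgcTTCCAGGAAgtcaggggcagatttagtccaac
Pdgfra: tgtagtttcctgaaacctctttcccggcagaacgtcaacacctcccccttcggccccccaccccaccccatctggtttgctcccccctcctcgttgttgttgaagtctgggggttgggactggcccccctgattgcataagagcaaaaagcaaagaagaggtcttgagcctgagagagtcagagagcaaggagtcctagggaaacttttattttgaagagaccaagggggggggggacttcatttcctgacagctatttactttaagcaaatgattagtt
Pax2: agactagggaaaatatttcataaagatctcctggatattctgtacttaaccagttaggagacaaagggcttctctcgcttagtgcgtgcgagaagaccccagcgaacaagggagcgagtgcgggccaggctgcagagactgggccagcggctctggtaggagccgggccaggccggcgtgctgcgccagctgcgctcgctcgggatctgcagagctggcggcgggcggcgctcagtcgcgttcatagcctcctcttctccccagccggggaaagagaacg
S100b: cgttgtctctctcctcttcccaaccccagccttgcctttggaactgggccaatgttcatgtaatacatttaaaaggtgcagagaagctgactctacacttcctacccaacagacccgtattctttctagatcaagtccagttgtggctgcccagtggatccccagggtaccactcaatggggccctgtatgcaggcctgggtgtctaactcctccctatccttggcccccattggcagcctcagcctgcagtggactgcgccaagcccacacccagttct
The Gfap window held 1 match, beginning 2 bases before the start, and the other windows shown held 0. Of the Pax2 windows not shown, the one at the RefSeq start 44746601 held 1 match, at −236 from the start, with 7 CpG dinucleotides, and the one at 44756906 held 0 matches and 28 CpG. Of all 32851 windows of the same 280 bases, 7.83% held a match. The Pax2 window shown was rich in CpG, with 22 CpG dinucleotides against 2 in Gfap, 4 in Pdgfra, 3 in S100b and a median of 6 over all windows. A match is a description of letters only.

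Reads in genes numbered 22326119 and 89473701 for cKO A and B and 75832360 and 83753377 for WT A and B; A and B stand for a numeric tag in the column names that 1 library of each group shares. cKO library A stood apart from the others, with a Pearson correlation across genes of 0.902 to 0.918 with them, against 0.988 to 0.993 among the other 3. A read there is worth 2.79 normalized counts, against 0.661 to 0.759 elsewhere, so low genes are measured most coarsely in it. A normalized count is a gene's reads over 1 size factor for each library. Casz1, the targeted gene, had 8687 and 10772 normalized counts in the cKO libraries and 13162 and 11995 in the WT libraries, counted over the whole gene, which does not measure the deletion.

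Astrocyte genes split into those lower in both cKO libraries and those that overlapped between the groups. Pax2, S100b, Pdgfra and Gfap had both cKO libraries below both WT libraries, while Aldh1l1, Cd44, Slc4a4 and Gja1 overlapped. Mean levels in cKO cells were 17.4% of WT for Pax2, 24.6% for S100b, 60.9% for Pdgfra and 70.5% for Gfap. No overlap with cKO lower was found for 4 of the 8 members and for 22.3% of the 14480 genes tested. Over all genes, limma on log2(normalized count + 1), a moderated two-sided test with Benjamini-Hochberg adjustment at 0.05, called 0 of the 8 members and 0% of the genes. An unadjusted p under 0.05 was given to 1 member, Pax2, and to 1.89% of the genes (274), and the edgeR test gave 0 calls (208 genes below an unadjusted p of 0.05). DESeq2 called 0 members and 0.00691% of the genes (1). None of the differences below is therefore called with all 4 libraries, and differences are given as values on the log2(normalized count + 1) scale (cKO minus WT, called log2 difference here).

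**Figure D1:**
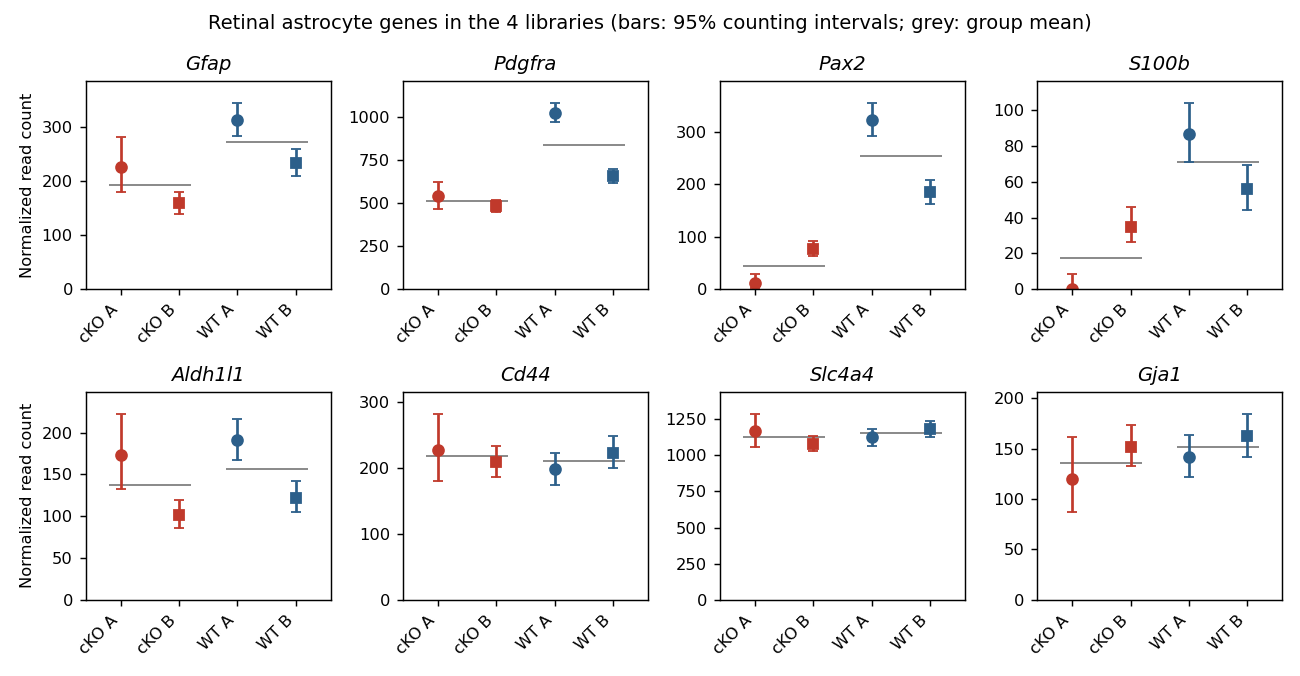
Normalized read counts (y axis, from 0) of the 8 genes in the 4 libraries (x axis; circles tag A, squares tag B), with 95% counting intervals as bars, except an upper limit of 3 reads for S100b in cKO library A, and group means as grey lines. Pax2, S100b, Pdgfra and Gfap lie lower in both cKO libraries than in both WT libraries, and the other 4 genes overlap.

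Pax2 encodes a paired-domain transcription factor of the optic stalk and of astrocyte precursors, and it had the lowest cKO level relative to WT. Pax2 (ENSMUSG00000004231, chromosome 19, 44756045 to 44837871 of GRCm38, plus strand) had 11.2 and 76.7 normalized counts in cKO libraries A and B, against 322 and 184 in the WT libraries A and B. The value in cKO library A rests on 4 reads, with an exact 95% Poisson interval of 3.05 to 28.6 normalized counts, and the other 3 libraries held 116 to 424 reads. Both cKO libraries lay below the lower WT library, by very different amounts. The means were 43.9 ± 46.3 (SD, n = 2) in cKO and 253 ± 97.3 (SD, n = 2) in WT, a log2 difference of −2.99 ± 0.98 (standard error; limma over all genes, adjusted p = 0.771). Within tags the log2 ratio of cKO to WT was −4.73 for tag A and −1.25 for tag B. In the authors' deposited table Pax2 had an adjusted p = 0.0339 and was the 1 member of 8 under 0.05, against 0.292% of the genes there. The limma call changed with the libraries in the fit. Without cKO library A the log2 difference was −1.65 (limma, adjusted p = 0.0107; 0.522% of genes called). It was −4.33 with cKO library B left out (limma, adjusted p = 2.47e-09; 39.2% of genes called), the lone cKO library being assumed to vary like the WT pair.

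S100b encodes a small calcium-binding protein of astrocytes and other glia. S100b (ENSMUSG00000033208, chromosome 10, 76253853 to 76261159, plus strand) was at 0 in cKO library A and had 35.0 normalized counts in cKO library B, against 86.5 and 55.9 in the WT libraries A and B. With 3 reads (8.38 normalized counts) taken as the floor of cKO library A, S100b was 10.3-fold lower in cKO at tag A. That ratio leaves out the counting error of WT library A, where the interval was 71.4 to 104 normalized counts. This floor does not cover a loss of reads beyond counting error. cKO library A had 9179 genes at 0, against 5793 to 6169 in the others. Fgfr3, named after its values were seen, had 0 reads there and 184 in cKO library B. At tag B the log2 ratio was −0.66, from 53 reads in cKO and 81 in WT. The fitted log2 difference of −3.56 ± 1.94 (standard error; limma over all genes, adjusted p = 0.771) depends on the pseudocount because of the 0, and with that library at its floor the difference of means was −1.94. The log2 difference was −0.97 without cKO library A. It was −6.14 without cKO library B, a value that also depends on the pseudocount. The 3' end of S100b overlaps Dip2a on the opposite strand (76259429 to 76345291), and the sources used here give no strand setting of the counting, so reads there cannot be told apart. Dip2a had 1165 and 2627 normalized counts in the cKO libraries and 3585 and 3007 in the WT libraries, and its part in the S100b values was not tested. Annotated genes on the opposite strand also overlap the gene bodies of Gfap (Gm26668, which spans it), Pax2 (Gm20395 and 1700039E22Rik), Pdgfra, Aldh1l1 and Cd44, and the same limit holds for their reads.

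Pdgfra, the receptor through which platelet-derived growth factor drives the division and spread of astrocyte precursors, was the most read of the 4 lower genes. Pdgfra (ENSMUSG00000029231, chromosome 5, 75152292 to 75198215, plus strand) had 539 and 481 normalized counts in cKO libraries A and B, with 1021 and 654 in the WT libraries. The groups did not overlap, and the cKO pair lay closer together than the WT pair. The means were 510 ± 41.0 (SD, n = 2) in cKO and 837 ± 260 (SD, n = 2) in WT, a log2 difference of −0.68 ± 0.30 (standard error; limma over all genes, adjusted p = 0.771). Within tags the log2 ratios were −0.92 at A and −0.44 at B. Without cKO library A, the log2 difference was −0.76. It was −0.36 without WT library A and −1.00 without WT library B, so its size changes by over 1.5 times with the WT library left out.

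Gfap, the intermediate filament protein of mature and reactive astrocytes, differed less, and by a like amount at both tags. Gfap (ENSMUSG00000020932, chromosome 11, 102887336 to 102900912, minus strand) had 226 and 159 normalized counts in cKO libraries A and B, with 313 and 234 in the WT libraries. The nearest values, 226 in cKO library A and 234 in WT library B, came from 81 and 339 reads, and their counting intervals of 180 to 281 and 210 to 260 normalized counts overlapped. The means were 193 ± 47.4 (SD, n = 2) in cKO and 273 ± 55.7 (SD, n = 2) in WT, a log2 difference of −0.51 ± 0.38 (standard error; limma over all genes, adjusted p = 0.771). The log2 ratios of cKO to WT were close, −0.47 (tag A) and −0.55 (tag B). In each group the library of tag A was the higher, by 0.50 in cKO and 0.42 in WT on the log2 scale, a spread about as large as the difference between the groups. The log2 difference was −0.76 without cKO library A, −0.26 without cKO library B and −0.30 without WT library A.

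The other 4 members showed no separation of the groups. Aldh1l1, a folate enzyme used as a broad astrocyte marker, had 173 and 102 normalized counts in cKO libraries A and B, with 191 and 122 in the WT libraries. It too was higher at tag A in both groups, and its log2 difference was −0.20 ± 0.50 (standard error; limma over all genes, adjusted p = 0.886). Cd44, a receptor for the matrix polymer hyaluronan on astrocyte precursors and on many immune and mesenchymal cells, had 226 and 209 normalized counts in the cKO libraries and 197 and 223 in the WT libraries. Its log2 difference was 0.05 ± 0.34 (standard error; limma, adjusted p = 0.957), with opposite signs at tag A (0.20) and tag B (−0.09). Slc4a4, a sodium bicarbonate cotransporter of astrocytes that Mueller glia also carry, had 1168 and 1079 normalized counts in the cKO libraries and 1124 and 1182 in the WT libraries. Its log2 difference of −0.04 had the smallest standard error of the 8, 0.20 (limma, adjusted p = 0.949). Gja1, which encodes connexin 43, the main gap junction protein of astrocytes, had 120 and 152 normalized counts in the cKO libraries and 141 and 162 in the WT libraries. Its log2 difference was −0.16 ± 0.41 (standard error; limma, adjusted p = 0.888). The signs of these small differences turned with the library left out for each of these genes, as given with the processing alternatives.

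These overlapping members lie at Aldh1l1 (ENSMUSG00000030088, chromosome 6, 90486427 to 90600203, plus strand), Cd44 (ENSMUSG00000005087, chromosome 2, 102811141 to 102901665, minus strand), Slc4a4 (ENSMUSG00000060961, chromosome 5, 88886818 to 89239653, plus strand) and Gja1 (ENSMUSG00000050953, chromosome 10, 56377330 to 56402513, plus strand). All 8 members are annotated as protein-coding genes, and the reads counted for a gene were not split by isoform.

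**Figure D2:**
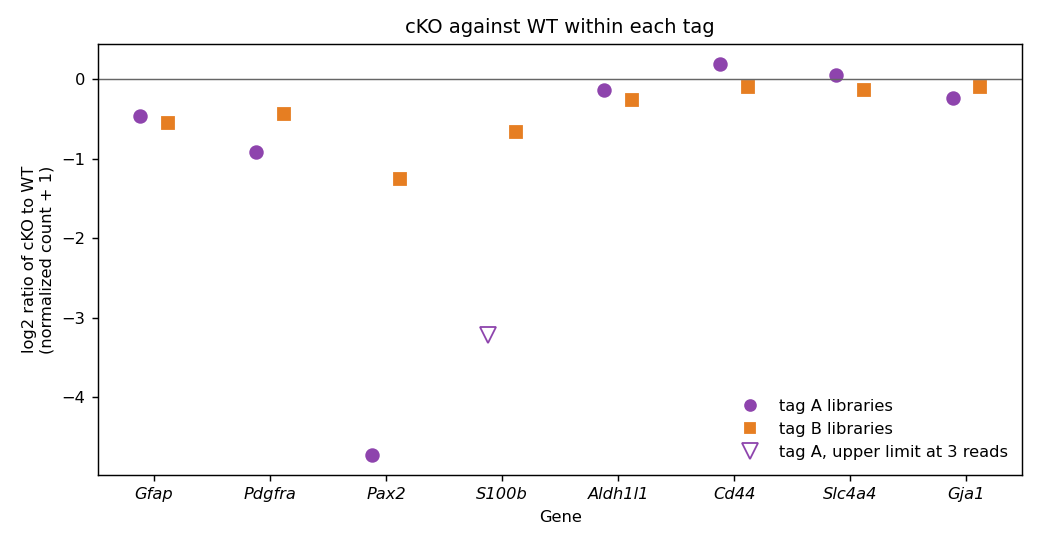
Log2 ratio of cKO to WT (y axis, normalized count + 1) for each gene (x axis). Ratios are between the 2 libraries of tag A (circles) and between the 2 of tag B (squares). The open triangle is the upper limit for S100b with cKO library A, at 0 reads, set to 3 reads. It leaves out the counting error of WT library A. Pax2 reaches −4.73 (tag A) and −1.25 (tag B), and Gfap lies at −0.47 and −0.55.

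As a group, 7 of the 8 members had a log2 difference below 0, as did 53.3% of all genes tested, with a median of −0.35 against −0.03 over all genes. At tag A 6 of the 8 members were lower in cKO and at tag B 8 of 8, and 6 were lower at both, against 36.6% of all genes at both. The share of all genes at each tag alone was not counted, and some tag B ratios were small (Cd44 and Gja1 −0.09, Slc4a4 −0.13). The median ratio of the members was −0.35 at each tag, against −0.054 at tag A and −0.0030 at tag B over all genes tested. Setting S100b to its floor in cKO library A could not move the member median of −0.35 over all 4 libraries. The log2 difference of S100b, −3.56 or −1.94 at the floor, lies below the middle members either way, so that step tests nothing. Dropping cKO library A took the member median to −0.67, and dropping WT library B took it to −0.62. The summed normalized count of the members was 2464 and 2294 in the cKO libraries and 3395 and 2817 in the WT libraries. In bulk RNA of sorted cells, fewer cells of a type and less RNA per cell cannot be told apart. The members did not shift evenly: in the same libraries Pax2 was at 17.4% of WT and Slc4a4 at 97.5%.

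Levels of different genes were compared per kb of annotated exon. In cKO cells Slc4a4 was the highest, at 108 and 99.8 normalized counts per kb in the libraries A and B, and Pax2 had the lowest mean, 8.12 per kb in cKO against 46.8 per kb in WT. In WT cells Slc4a4 was also the highest, at 104 and 109 normalized counts per kb, followed by Pdgfra at 102 and 65.2 and Gfap at 74.2 and 55.5. S100b had 58.3 and 37.7, Pax2 59.5 and 34.1, Aldh1l1 42.2 and 27.1, Cd44 29.1 and 32.9 and Gja1 13.8 and 15.8 normalized counts per kb. The WT ranges of neighbours in this order overlapped, apart from Slc4a4 above Pdgfra and Gja1 below Cd44.

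All members were low beside the genes of the main cell population. Retinal progenitor markers had a median of 4750 and 5234 normalized counts per kb in cKO libraries A and B, with 4233 and 4941 in the WT libraries, so the sorted cells carry the markers of their labelled tissue. Mueller glia markers had 6072 and 3866 in cKO and 4831 and 4553 in WT. That list shares Hes1 with the progenitor list, and its genes Glul and Slc1a3 are also strong in progenitors. Its level therefore does not show that Mueller glia were in the sort. The astrocyte label rests on Gfap, Pdgfra and Pax2, which were read in all libraries, while Gjb6, a connexin of mature astrocytes, was at 0 in all 4 libraries and Hepacam, an astrocyte adhesion protein, was under 10 in each (both named after their values were seen). Slc4a4, Cd44, Gja1 and Aldh1l1 are known in other retinal cells too, and which cells carried their reads was not measured.

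**Figure D3:**
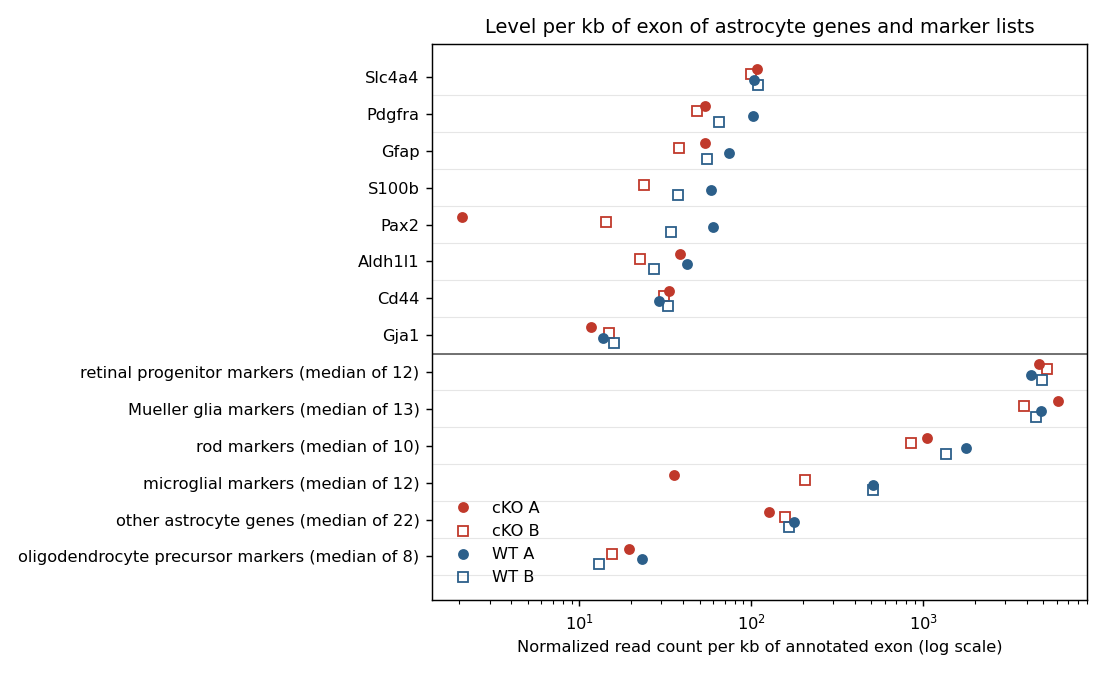
Normalized read count per kb of annotated exon (x axis, log scale) of each astrocyte gene and the median of 6 marker lists (rows) in the 4 libraries; S100b in cKO library A is at 0 and is not drawn. The astrocyte genes lie between 2.07 and 109 per kb, far below the progenitor median of 4233 to 5234.

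Of the other astrocyte genes, 20 of 22 passed the level filter and 0 were called in either direction (limma, 0% of genes called). Of the 20, 12 were lower and 8 higher in cKO, with a median log2 difference of −0.21 against −0.03 over all genes. Tag A gave −0.35 for this list, tag B gave −0.05, and the fit lacking cKO library A gave −0.10. The most read were Glul, glutamine synthetase, with 48239 and 36123 normalized counts in cKO and 35019 and 33800 in WT, and Slc1a3, the glutamate transporter GLAST, with 36834 and 18370 in cKO and 22618 and 17862 in WT. Both are also strong genes of Mueller glia and progenitors, and their log2 differences were 0.28 and 0.37. A membrane protein of astrocyte endfeet, Mlc1, named after its values were seen, had 5.59 and 62.8 normalized counts in cKO and 279 and 112 in WT, a pattern close to that of Pax2 with 2 reads in cKO library A. A list of intermediate filament genes, which holds the neuronal filaments Ina, Nefl and Nefm beside those of glia and progenitors, had 5 of 7 genes higher at a median of 0.24 (0.066 without cKO library A), with Vim, vimentin, at 0.39 and Nes, nestin, at 0.31 (log2 difference, limma adjusted p = 0.771 each, 0 called).

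The partners of the members were taken from gene lists, and 0 genes in any of them were called in either direction by limma. PDGF ligands and the other receptors had 6 of 6 genes past the level filter, 4 lower and 2 higher, with a median log2 difference of −0.36. The tag A median was −0.73 and that of tag B 0.05. Leaving out cKO library A gave −0.13, and leaving out WT library B gave −0.58. Pdgfc, a ligand of Pdgfra, had 2093 and 1164 normalized counts in cKO and 1372 and 1116 in WT, and Pdgfrb, the receptor of mural cells, had 992 and 998 in cKO and 829 and 966 in WT. Pdgfa, the ligand that ganglion cells supply to astrocytes, was named after its values were seen and had 27.9 and 249 in cKO and 191 and 226 in WT, on 10 reads in cKO library A. Optic stalk and Pax genes had 7 of 8 past the filter, 4 lower and 3 higher, at a median of −0.15. That median was −0.048 without cKO library A, −0.64 without cKO library B and 0.02 without WT library B. In that list Pax6, an eye field factor that opposes Pax2, had 35093 and 69539 normalized counts in cKO and 48629 and 61512 in WT, and Six3 had 17712 and 15105 in cKO and 15518 and 15724 in WT.

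The list beside S100b, of S100 genes and S100pbp, which encodes an S100P-binding protein and is no S100 gene, had a median log2 difference of 0.37 over 8 tested genes (0.21 without WT library A), and 0 were called by limma. All 7 tested S100 genes in it were higher in cKO, and S100pbp was lower. S100a10, an annexin partner, had 1389 and 1202 normalized counts in cKO and 749 and 1068 in WT, and S100pbp had 3490 and 4227 in cKO and 4659 and 4741 in WT. The folate enzymes beside Aldh1l1 had 8 of 11 genes higher at a median of 0.20 (0.03 without cKO library A), with Shmt2 at 0.37 and Tyms, thymidylate synthase, at 0.29. Hyaluronan genes and the ezrin group that links Cd44 to actin had 5 of 8 tested genes higher at a median of 0.13 (0.02 without WT library A), with Msn, moesin, at 0.46 and Rdx, radixin, at 0.14. Bicarbonate transporters and carbonic anhydrases had 8 of 9 tested genes lower at a median of −0.51, with −0.95 for tag A and 0.02 for tag B (−0.037 without cKO library A). Car2, carbonic anhydrase 2, had a log2 difference of 0.22 and Slc4a7 of −0.51. Of the 17 other connexins and ZO-1, 5 passed the filter, at a median of −0.45 (tag A −0.55, tag B 0.00), with Tjp1, ZO-1, at −0.08 and Gjc1, connexin 45, at 0.09.

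Marker lists of other cell types give the setting for these values. All 12 microglial markers lay lower in cKO at a median log2 difference of −2.72, which was −1.23 without cKO library A. Their ratios were −4.23 for tag A and −1.12 for tag B, and 0 were called by limma with all 4 libraries. An unadjusted limma p under 0.05 was given to 11 of the 12, against 1.89% of all genes. An adjusted p under 0.05 was listed for 9 of the 12 in the authors' deposited table, against 0.292% (51) of the genes there, so Pax2 did not stand alone in it. Their summed normalized count was 1235 and 8756 in cKO and 21252 and 19393 in WT, and 1 of the 12 was at 0 in cKO library A. Csf1r, the microglial growth factor receptor, had 346 and 2293 normalized counts in cKO and 6021 and 4788 in WT, and Ctss, a lysosomal protease, had 109 and 1249 in cKO and 2468 and 2620 in WT. Pax2 stood at −4.73 and −1.25 at the same tags, and the part of a microglial difference in the Pax2 values was not tested. Mueller glia markers had a median of 0.33 (−0.00048 without cKO library A), with 9 of 13 higher, and 4 genes of that list (Glul, Slc1a3, Aqp4 and Sox9) also stand among the other astrocyte genes. Dkk3, a secreted Wnt modulator, was the most read of them, at 140616 and 89828 normalized counts in cKO and 95220 and 81962 in WT. Oligodendrocyte precursor markers, which share Pdgfra with astrocytes, had a median of 0.06 over the 6 of 8 genes tested, with Mbp at 0.07 and Olig2 at 0.06. Of the 8, 3 were at 0 in cKO library A. Their summed normalized count was 6762 and 7373 in cKO and 6560 and 7490 in WT, most of it from Mbp and Olig2. Mbp had 3736 and 3772 in cKO and 3393 and 3773 in WT, and Olig2 had 2643 and 2990 in cKO and 2428 and 3014 in WT. Which cells carried the reads of these 2 genes was not measured, so the sum does not give the level of that lineage. Sox10, which defines that lineage, was at 0 and 5.29 in cKO and 22.8 and 5.52 in WT (named after its values were seen).

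The 3 genes whose pattern over the 4 libraries was most like that of Pax2 were microglial. The Pax2 value in cKO library A rests on 4 reads, with a counting interval of 3.05 to 28.6 normalized counts, so this order is uncertain. The pattern of the astrocyte gene Mlc1 was also close to that of Pax2. Likeness was the Euclidean distance between log2(normalized count + 1) values centred on each gene's mean, over the 4 libraries. The search covered 12367 genes with a mean of at least 50, with predicted and clone names left out. Nearest to Pax2 were Cx3cr1, a microglial chemokine receptor, at a distance of 0.29, P2ry6, a nucleotide receptor of microglia, at 0.52 and Csf1r at 0.52. Cx3cr1 had 97.8 and 558 normalized counts in cKO and 2011 and 1432 in WT. Nearest to Pdgfra were Chac2 at 0.13, Prph2, peripherin 2 of photoreceptor outer segments, at 0.14 and Nfic, a transcription factor of the NFI family, at 0.14. Nearest to Gfap were Col27a1, a fibrillar collagen, at 0.09, Gdpgp1 at 0.10 and Ppargc1b, a transcriptional coactivator, at 0.12. Within a distance of 0.2 there were 14 genes for Gfap, 10 for Pdgfra and 0 for Pax2. With 4 libraries such nearness says only that these values ran in parallel.

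**Figure D4:**
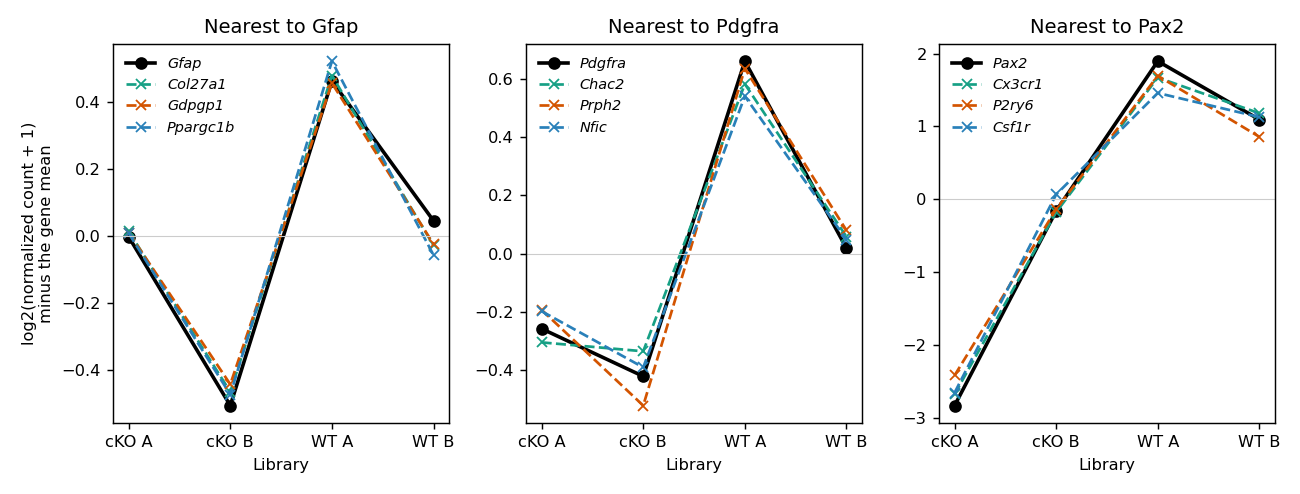
Values of Gfap, Pdgfra and Pax2 (black) and of the 3 genes nearest to each (dashed) in the 4 libraries (x axis), as log2(normalized count + 1) minus the gene's mean (y axis, a different range in each panel). Pax2 runs with Cx3cr1, P2ry6 and Csf1r, lowest in cKO library A and highest in WT library A.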

How the data were processed

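RNA-seq was measured in 2 cKO and 2 WT libraries. FastQC, TopHat, HTSeq and DESeq were used with mm10, per the submitters' processing notes; the sources used here give no versions, annotation or strand setting. The deposited values are a signal, read counts divided by 1 size factor per library, and 100% came out as whole reads within 0.01 reads, so reads were recovered. The authors' adjusted p-value column is quoted from the deposited table; the test behind it is not given there. Both cKO columns carry the heading replicate 2 and so were assigned to the group only. Same-group libraries differed beyond sampling noise (chi-square of reads per degree of freedom 113 in cKO and 67.0 in WT).

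The test was limma 3.58.1 on log2(normalized count + 1) for the 14480 genes averaging at least 10, with a mean-dependent prior, in R 4.3.3; scripts were tested on simulated data. Alternatives were pseudocounts 0.5 and 5, no filter, a mean of at least 50, median rescaling, no trend, edgeR 4.0.16 and DESeq2 1.42.0 on the recovered read counts of the same genes, a replicate block and leaving out each library. Members and lists were chosen with earlier results of these data known. Besides the 8 members, the text names in each list the called members or else the 2 with the highest mean, the 3 nearest patterns of Gfap, Pdgfra and Pax2, and genes said to be named after their values were seen. Symbols come from the table, positions and exon lengths from GENCODE M21 (GRCm38; 96.1% of identifiers found), promoters from RefSeq (GRCm38.p6). Intervals (95%) and floors (3 reads) cover counting error only.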

Additional observations from a re-analysis of the deposited data

How the results depend on the processing

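Under limma with other pseudocounts, filters, rescaling and no trend, and under edgeR and DESeq2, 0 of the 8 members were called; over all genes the count was 0 except for 1 gene in DESeq2. Leaving out a library gave 0 to 5662 genes called and 0 to 2 members (Pax2 without cKO library A, Pax2 and S100b without cKO library B); the cause was not tested. The median over the members was −0.67 to −0.28 when a library was left out and −0.20 with a mean of at least 50, which leaves S100b out. The tag is a shared number only, and the tag A libraries' deviations from their group means had a correlation of 0.258 across genes. With the replicate block, 0 genes and 0 members were called (1375 genes at an unadjusted limma p under 0.05), the median over members was −0.35 and Pax2 had a limma adjusted p = 0.426. Pax2, S100b, Pdgfra and Gfap kept a log2 difference below 0 under every alternative run. Their groups do not overlap, so leaving out a library or changing the pseudocount could not turn that sign. The sign of Aldh1l1 reversed without cKO library B (0.18) and without WT library A (0.12; range −0.58 to 0.18), that of Cd44 without cKO library A (−0.0060) and without WT library A (−0.036; range −0.036 to 0.14), that of Slc4a4 without cKO library B (0.019; range −0.095 to 0.019) and that of Gja1 without cKO library A (0.0067; range −0.33 to 0.0067). Median log2 differences of gene lists also changed sign: without cKO library A for connexins (0.01), Mueller glia (−0.00048), oligodendrocyte precursors (−0.07), endothelial cells (−0.18) and mural cells (0.01), without WT library B for optic stalk and Pax genes (0.02), and without cKO library B (−0.33) or WT library A (−0.16) for ganglion cells. With no filter on low values fibroblasts (−0.03), oligodendrocyte precursors (−0.16) and endothelial cells (−0.15) changed sign, and with a mean of at least 50 optic stalk and Pax genes (0.05). Leaving out cKO library A also moved other list medians by over 1.5 times, as given beside them; edgeR gave −0.07 and a mean of at least 50 gave −0.08 for connexins, and that mean gave −0.15 for bicarbonate genes. Pax2 and S100b rest on 4 and 0 reads in cKO library A. The part of its lower depth, or of another loss of reads in it, in these counts was not tested.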

Other observations

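Of the marker genes of vessels and ganglion cells, the neighbours of astrocytes in the retina, 0 were called by limma. Endothelial markers had a median log2 difference of 0.06 over the 7 of 10 genes tested, 4 higher and 3 lower. Of the 10, 5 were at 0 in cKO library A. Kdr, a VEGF receptor that retinal progenitors also express, had 48371 and 38675 normalized counts in cKO and 42492 and 37659 in WT. Cldn5, an endothelial tight junction protein, had 883 and 639 in cKO and 771 and 675 in WT. Cdh5, named after its values were seen, was near the floor, with 0 and 8.59 in cKO and 8.35 and 23.5 in WT. Ganglion cell markers had a median of 0.13 (0.53 without cKO library A) with 7 of 10 higher. Stmn2 had 5728 and 7568 in cKO and 4571 and 6273 in WT, and Gap43 had 2163 and 2413 in cKO and 1662 and 1995 in WT. Mural cell markers had a median of −0.56, with −0.89 for tag A and 0.01 for tag B, and 5 of 9 listed genes at 0 in cKO library A. That median was −0.17 without WT library A, −1.03 without WT library B and −1.13 with no filter on low values. Notch3 had a log2 difference of 0.27. Fibroblast markers, of a cell type that expresses Pdgfra, had a median of 0.34 over the 4 of 9 genes tested (0.01 without cKO library A and −0.03 with no filter on low values), with Fbln1 at 0.55 and Col1a2 at −0.03, and 5 of the 9 at 0 in cKO library A. Rod markers had a median of −0.73 with 9 of 10 lower, Crx at −0.60 and Nr2e3 at −1.20; 0 were called by limma with all 4 libraries, 8 of 10 had an unadjusted limma p under 0.05, and 3 of 10 had an adjusted p under 0.05 in the authors' deposited table. Retinal progenitor markers had a median of 0.15 with 10 of 12 higher, Ccnd1, a G1 cyclin, at 0.45.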
